A study of Homo sapiens with 4 samples.

Results

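The chromosome 7 peaks are the 636 regions of chromosome 7, of 8871 in all, in a deposited comparison of ZHX2 chromatin immunoprecipitation between cells labelled Mut4 and cells labelled ZHX2. They were taken by chromosome alone, ordered by start, and run from base 711786 to base 158977592 of the build hg38, with 520 genes given as nearest to them. The chromosome was picked because its peaks lay furthest toward Mut4, so its overall shift is a description and not a finding; what is asked here is whether the shift was shared along the chromosome or came from a few stretches. Both arms of the study used DB, a long-established line of human diffuse large B-cell lymphoma. Its cells were fixed with 1% formaldehyde, and the sheared chromatin was incubated with an antibody against ZHX2. The Mut4 arm carried a form of ZHX2 whose changed residues the labels do not describe, and the ZHX2 arm is named for the protein without that addition. The labels do not say how either form was expressed, whether a line is 1 clone, or whether endogenous ZHX2, which the antibody could bind in both arms, remained. Each arm had 1 immunoprecipitated library and 1 input library, so the data hold no replicate error, and nothing below tests a difference between the arms. The immunoprecipitation measures binding, not gene expression, so the B-cell label could not be checked against marker transcripts.

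ZHX2 belongs to a small family of nuclear proteins with zinc fingers and several homeodomains that pair with one another on DNA. It was first described as a partner of the A subunit of NF-Y, the factor that binds the CCAAT box of many promoters, and as a repressor of genes such as alpha-fetoprotein in the liver. Chromosome 7 holds the HOXA cluster of developmental regulators, the Williams syndrome region, and genes with known parts in lymphoid cells and lymphoma, among them IKZF1, EZH2, CDK6 and BRAF.

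Promoter sequences of 8 genes are shown because their peaks are among the furthest apart in the comparison: they have the 4 largest and 4 smallest folds of the stronger promoter peaks that contain a matching RefSeq window. They come from RefSeq on GRCh38.p14, in lower case from 5′ to 3′ on the gene's strand, and cover the 250 bases before the transcription start; capitals mark CCAAT or its reverse complement ATTGG. The first 4 belong to strong promoter peaks with more scaled signal in Mut4, namely TBRG4 (a mitochondrial RNA-binding protein), WDR60 (a subunit of the dynein-2 motor of cilia, DYNC2I1 in RefSeq), C7orf26 (a subunit of the Integrator complex, INTS15 in RefSeq) and H2AZ2 (a histone H2A variant).
TBRG4, chr7:45111698-45111947, minus strand: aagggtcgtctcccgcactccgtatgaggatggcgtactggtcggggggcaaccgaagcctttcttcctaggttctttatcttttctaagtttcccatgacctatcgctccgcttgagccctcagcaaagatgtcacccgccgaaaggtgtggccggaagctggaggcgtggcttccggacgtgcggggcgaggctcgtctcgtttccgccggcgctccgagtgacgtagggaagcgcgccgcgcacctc
WDR60, chr7:158856308-158856557, plus strand: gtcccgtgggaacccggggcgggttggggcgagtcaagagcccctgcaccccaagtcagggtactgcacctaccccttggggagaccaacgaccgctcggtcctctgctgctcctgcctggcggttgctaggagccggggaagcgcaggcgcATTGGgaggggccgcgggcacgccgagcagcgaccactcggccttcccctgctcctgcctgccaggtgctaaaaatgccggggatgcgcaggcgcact
C7orf26, chr7:6589771-6590020, plus strand: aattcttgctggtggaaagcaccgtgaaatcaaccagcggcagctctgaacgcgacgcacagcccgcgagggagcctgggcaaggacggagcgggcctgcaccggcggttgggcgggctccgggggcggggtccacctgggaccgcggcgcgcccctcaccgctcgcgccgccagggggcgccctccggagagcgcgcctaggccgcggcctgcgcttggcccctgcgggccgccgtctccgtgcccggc
H2AZ2, chr7:44848088-44848337, minus strand: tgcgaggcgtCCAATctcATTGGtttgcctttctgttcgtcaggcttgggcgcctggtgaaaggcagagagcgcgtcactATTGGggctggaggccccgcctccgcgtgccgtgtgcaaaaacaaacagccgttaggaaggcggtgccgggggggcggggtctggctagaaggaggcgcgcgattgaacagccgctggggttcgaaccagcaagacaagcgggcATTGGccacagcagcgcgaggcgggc

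The next 4 belong to promoter peaks with less scaled signal in Mut4: MTURN (a protein of neural differentiation), JAZF1-AS1 (a noncoding RNA antisense to JAZF1), NAPEPLD (the phospholipase that makes N-acylethanolamines) and TMEM130 (a membrane protein).
MTURN, chr7:30134736-30134985, plus strand: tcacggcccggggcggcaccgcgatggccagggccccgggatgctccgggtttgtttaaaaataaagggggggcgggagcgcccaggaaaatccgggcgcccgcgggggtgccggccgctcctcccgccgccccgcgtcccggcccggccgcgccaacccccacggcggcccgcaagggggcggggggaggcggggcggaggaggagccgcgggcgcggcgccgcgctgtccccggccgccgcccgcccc
JAZF1-AS1, chr7:28180207-28180456, plus strand: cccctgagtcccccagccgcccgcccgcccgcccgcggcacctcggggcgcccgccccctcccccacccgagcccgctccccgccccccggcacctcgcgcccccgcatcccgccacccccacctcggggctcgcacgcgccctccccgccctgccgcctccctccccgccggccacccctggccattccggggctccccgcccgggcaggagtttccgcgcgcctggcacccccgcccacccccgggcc
NAPEPLD, chr7:103149323-103149572, minus strand: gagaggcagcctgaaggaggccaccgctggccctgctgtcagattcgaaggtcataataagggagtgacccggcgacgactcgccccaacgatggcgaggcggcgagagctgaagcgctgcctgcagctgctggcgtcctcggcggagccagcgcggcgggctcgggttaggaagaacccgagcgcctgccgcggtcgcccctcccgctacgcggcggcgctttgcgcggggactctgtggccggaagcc
TMEM130, chr7:98870015-98870264, minus strand: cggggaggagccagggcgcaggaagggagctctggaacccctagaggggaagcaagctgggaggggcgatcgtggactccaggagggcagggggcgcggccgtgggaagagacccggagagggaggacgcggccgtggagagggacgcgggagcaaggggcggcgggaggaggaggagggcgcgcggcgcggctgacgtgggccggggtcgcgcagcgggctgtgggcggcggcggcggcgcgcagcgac

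The 4 promoters with more signal in Mut4 had 62.0%, 69.6%, 76.0% and 64.4% G and C, in the order printed, and the 4 with less had 81.6%, 85.2%, 70.4% and 77.2%. The H2AZ2 promoter held 4 CCAAT boxes and the WDR60 promoter 1, and these letters were found in none of the other 6 windows.

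Reads in each library were recovered as whole numbers from the deposited fold and mean signal, as set out under the processing. Over all listed peaks they summed to 271694 in Mut4 and 541900 in ZHX2. A scaled fold is the ratio of Mut4 to ZHX2 reads times 2.14, the ratio of the library sizes behind the authors' values, and each fold below carries an exact 95% interval that covers counting error only. Higher and lower in Mut4 always refer to that scaling, under which a change shared by most peaks is removed. On unscaled reads every log2 fold is 1.10 lower, and then only 8.33% of the chromosome 7 peaks and 3.73% of the other peaks were higher in Mut4. The median chromosome 7 peak held 25 reads in Mut4 (quartiles 16 and 40.25) and 47 reads in ZHX2 (quartiles 29.75 and 75), against 21 reads in Mut4 and 44 in ZHX2 for the other peaks.

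**Figure D1:**
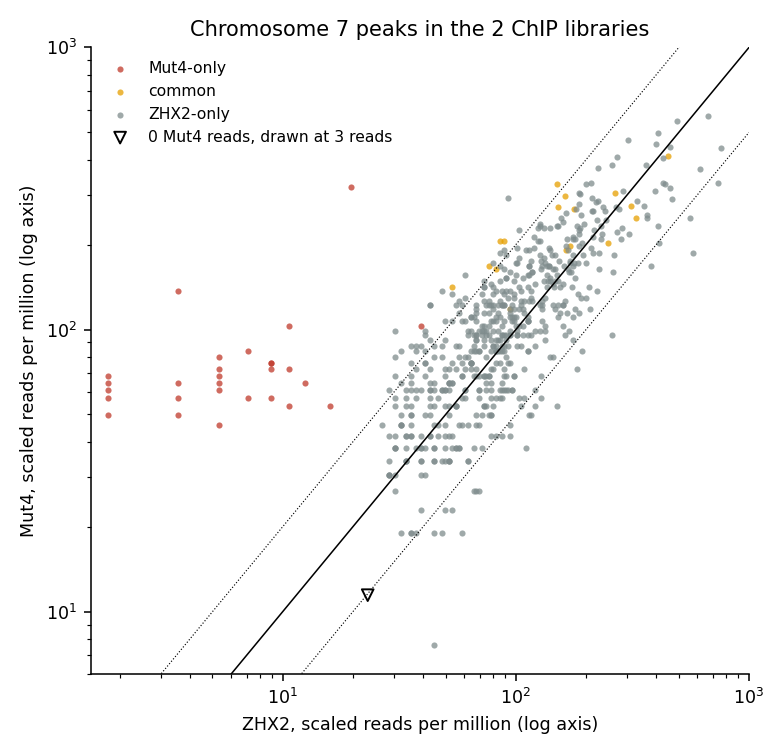
Each point is a chromosome 7 peak, with its scaled CPM in Mut4 up and in ZHX2 across, both on log axes, coloured by the mark the authors gave it; the solid line is equal signal and the dotted lines are 2-fold. Of the 636 peaks 399 lay above the solid line. The 28 peaks marked as unique to Mut4 all did, a direction that goes with the mark. The triangle is the peak with 0 reads in Mut4.

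Under the authors' scaling, 399 of the 636 chromosome 7 peaks were higher in Mut4, 62.7% (58.8 to 66.5%), where the figure over all listed peaks was 49.6%. The other 237 were lower, against 50.4% of all listed peaks. Since the chromosome was chosen by this measure, nothing is read from the gap. The median log2 fold was 0.20 (0.13 to 0.26), with quartiles of -0.23 and 0.59, against -0.017 (-0.039 to -0.0033) over the 8235 other peaks. The typical shift was thus small beside the spread among the peaks themselves. Over 2-fold higher were 66 chromosome 7 peaks, or 10.4%, where 5.31% of all listed peaks were, and over 2-fold lower were 28, or 4.40%, where 8.44% were. The counting interval lay above 1 in 127 peaks, 19.97% against 11.0% of all listed peaks, and below 1 in 53, 8.33% against 11.0%. The authors' deposited table tests 1 library against 1. In it 40 chromosome 7 peaks had an adjusted p under 0.05 and were higher in Mut4 (6.29%, all listed peaks 3.43%). At that threshold 11 chromosome 7 peaks were lower in Mut4 (1.73%, all listed peaks 2.53%). Of the 40 higher peaks, 26 were marked as unique to Mut4, which leaves 14 of the other 608 peaks. The 3.43% includes peaks of that mark, and the matching share elsewhere without them is not given, so the 14 stands alone.

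The shift was in the number of peaks more than in the reads. Summed over the chromosome, the peaks held 20022 reads in Mut4 and 39245 in ZHX2, a scaled fold of 1.09 (1.07 to 1.11). The other peaks together had a summed fold of 1.07 (1.07 to 1.08), and of 1.03 (1.03 to 1.04) without the 3 strongest peaks of the whole table. Chromosome 7 held 7.37% of listed reads in Mut4 and 7.24% in ZHX2.

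The shift ran along the chromosome. Of its 16 windows of 10 Mb, numbered from the short-arm end, 15 had more peaks higher than lower in Mut4, and 15 had a median log2 fold above 0. The share of peaks higher in Mut4 ranged over the windows from 47.1% to 86.7% and the median log2 fold from -0.048 to 0.75. In 6 windows the interval of the share lay above 50%, and in 0 below it. On the 22 other chromosomes, 88 of 239 such windows (36.8%) had more peaks higher than lower. Chromosome 19 had such a majority in 6 of 6 windows, chromosome 20 in 6 of 7 and X in 0 of 7. Chromosome 7 was picked by its overall share, so a higher count than elsewhere partly restates that choice and is not a finding. Counting promoter peaks alone, 9 of 12 windows of chromosome 7 had a majority higher in Mut4, and counting the rest, 13 of 14. The scaling sets these counts too, since on unscaled reads 0 of the 16 windows had a majority higher in Mut4.

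**Figure D2:**
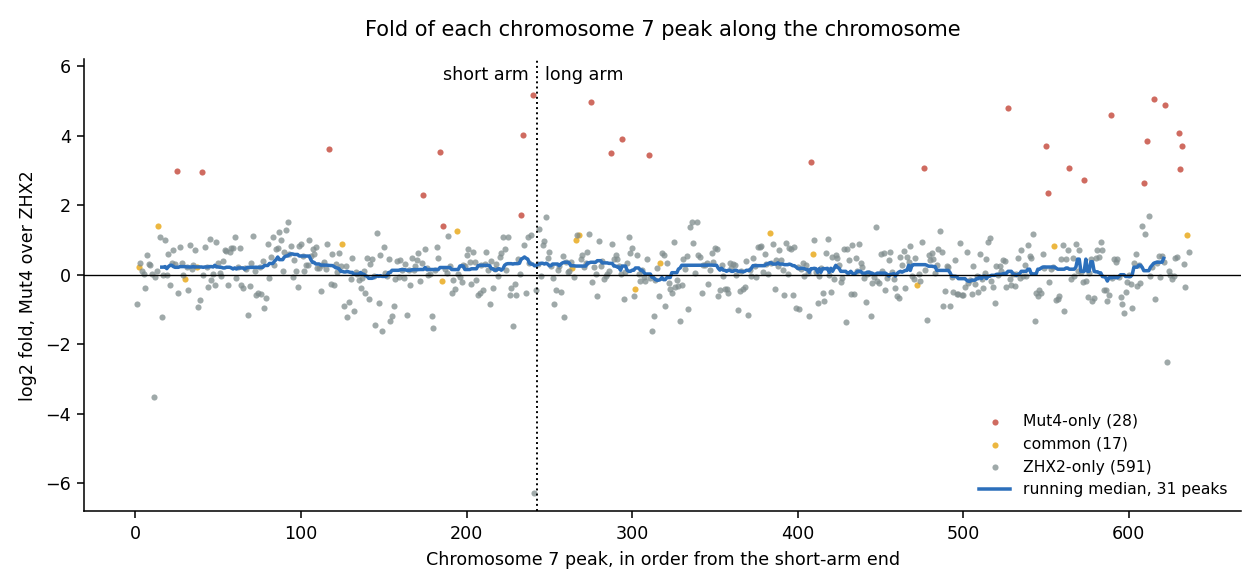
Log2 scaled fold of Mut4 over ZHX2 (vertical, authors' scaling) for the 636 chromosome 7 peaks in their order along the chromosome (horizontal), coloured by mark, with the running median of 31 peaks as a line and the boundary of the arms dotted. The line was above 0 at 88.3% of its 606 positions, while peaks above and below 0 were mixed throughout.

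The running median over 31 peaks was above 0 at 88.3% of 606 positions and below 0 at 71. Its lowest value was -0.19, near AC090114.2 at 128.5 Mb, and its highest 0.60. Leaving out any 1 window kept the share of peaks higher in Mut4 between 61.8% and 63.6%.

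The 2nd window, 10 to 20 Mb, had the highest median: 18 of its 21 peaks were higher in Mut4 (85.7%, 63.7 to 97.0%), with a median log2 fold of 0.75 and a summed fold of 1.39. Its peaks include those at THSD7A, AGMO and HDAC9, a class IIa histone deacetylase. The 9th window, 80 to 90 Mb, had 13 of 15 peaks higher (86.7%, 59.5 to 98.3%; median 0.37), and the 7th, 60 to 70 Mb, 28 of 36 (77.8%, 60.8 to 89.9%; median 0.32). At the low end, the 13th window, 120 to 130 Mb, had 16 of 34 (47.1%, 29.8 to 64.9%; median -0.048). Within it, the stretch from 125 to 130 Mb had 8 of 24 peaks higher (33.3%, 15.6 to 55.3%; median -0.20), with genes such as IMPDH1 (a rate-limiting enzyme of guanine nucleotide synthesis), IRF5 (an interferon regulatory factor), FLNC, SMO and NRF1. The 4th window, 30 to 40 Mb, was the 1 whose interval of the summed fold lay below 1, at 0.858 (0.793 to 0.927). Even so, 14 of its 24 peaks were higher in Mut4. Of the windows of 5 Mb with 5 or more peaks, 18 had a summed-fold interval above 1 and 2 below it. The 2 were 25 to 30 Mb, at 0.837 (0.768 to 0.912), and 30 to 35 Mb, at 0.821 (0.739 to 0.912).

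**Figure D3:**
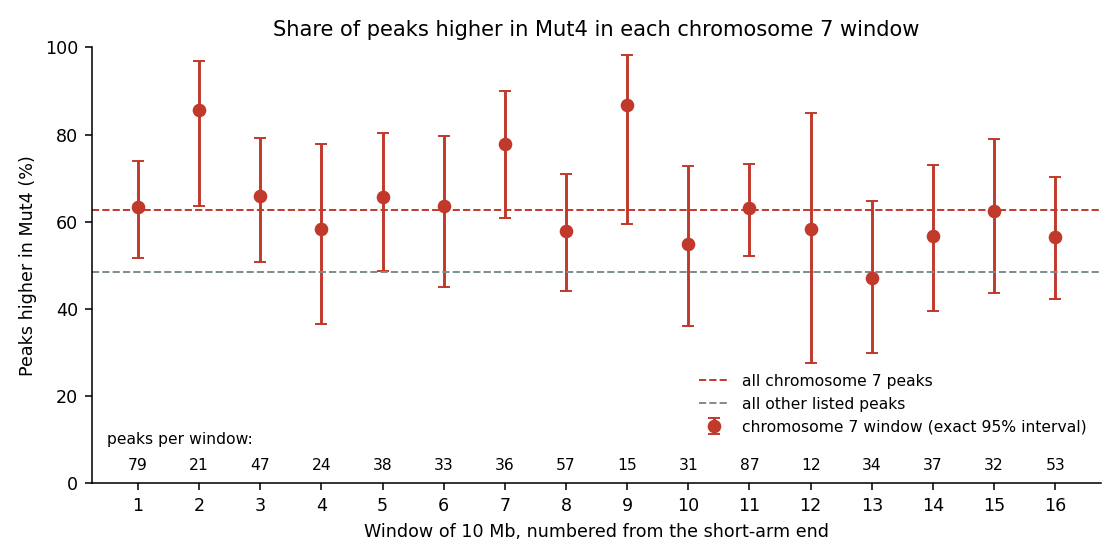
Share of peaks higher in Mut4 under the authors' scaling (vertical, in percent, with exact 95% intervals) for each 10 Mb window of chromosome 7 (horizontal), with the number of peaks in each window below; dashed lines give the share over all chromosome 7 peaks, 62.7%, and over the other peaks, 48.5%. The shares ran from 47.1% in the 13th window to 86.7% in the 9th.

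The difference between the arms had an interval that spanned 0. On the short arm (starts below 60 Mb) 159 of 242 peaks were higher in Mut4 (65.7%, 59.4 to 71.7%; median log2 fold 0.21), and on the long arm 240 of 394 (60.9%, 55.9 to 65.8%; median 0.19). The short arm minus the long arm was 4.79 percentage points (-2.97 to 12.3). Among promoter peaks the shares were 61.9% on the short arm and 55.7% on the long arm, and among the rest 68.6% and 65.8%. Of the windows of 5 Mb with 5 or more peaks, 25 of 32 had a majority higher in Mut4.

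Of 635 pairs of adjacent peaks, 346 (54.5%, 50.5 to 58.4%) had the same direction, where the shares higher and lower alone give 53.2%, and the share was 52.5% for pairs under 10 kb apart, 53.5% for 10 to 100 kb and 55.8% beyond 100 kb. Adjacent peaks differed by a median of 0.56 on the log2 scale. The longest runs of peaks higher in Mut4 held 13 peaks each, and 1 of them ran from 18516575 to 23474467 (HDAC9 to IGF2BP3, 7 promoter peaks, median log2 fold 0.54). The longest run of lower peaks held 6, from 151082319 to 151382042, at TMUB1, AGAP3, SMARCD3 and NUB1, with a median of -0.57.

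The peaks away from promoters carried more of the shift, counting the peaks unique to Mut4. All but 2 of those 28 lay outside promoters, and 14 were over 10 kb from a start. They are higher by their mark and enter the shares below, which were not computed without them. Promoter peaks made up 46.7% (42.8 to 50.7%) of the chromosome 7 peaks and 57.4% of the others, and 57.9% (52.1 to 63.6%) of them were higher in Mut4, against 48.4% of promoter peaks elsewhere. Of the 339 peaks outside promoters, 227 were higher (67.0%, 61.7 to 71.9%), against 48.8% elsewhere. Among introns the share was 72.3% (64.7 to 79.1%), against 51.3% elsewhere, and among intergenic peaks 76.7% (66.4 to 85.2%), against 59.6%. Exonic peaks were the 1 class with most peaks lower: 42.4% were higher in Mut4, against 35.0% elsewhere. The share grew with distance from the nearest transcription start, from 56.6% within 1 kb through 68.0% at 1 to 10 kb to 77.4% (69.4 to 84.2%) beyond 10 kb. The same bins elsewhere held 46.1%, 52.5% and 59.8%. Peaks beyond 10 kb were 20.9% of the chromosome 7 peaks and 10.2% of the others.

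**Figure D4:**
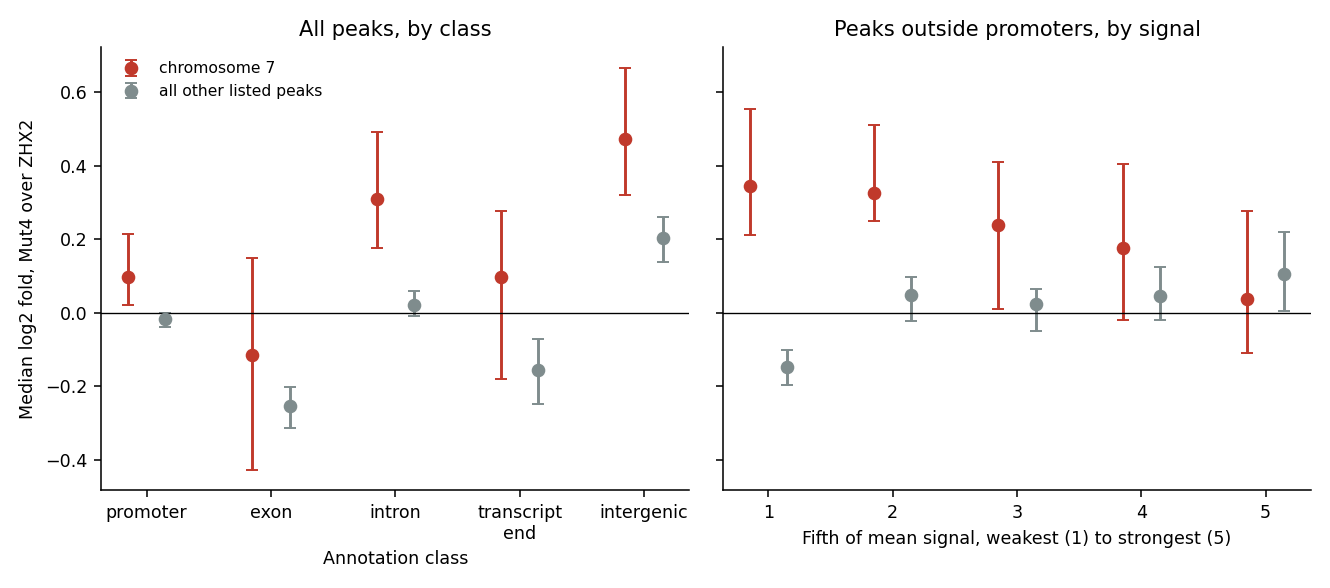
Median log2 fold of Mut4 over ZHX2 (authors' scaling) with 95% intervals from order statistics, for chromosome 7 peaks and all other listed peaks, by annotation class (left) and, outside promoters, by quintile of mean signal (right). The medians in introns were 0.31 on chromosome 7 and 0.020 elsewhere. Outside promoters they lay at 0.34 and -0.15 in the weakest quintile and at 0.037 and 0.10 in the strongest. Peaks unique to Mut4 are included.

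By quintile of mean signal over all listed peaks, from weakest to strongest, 63.1%, 64.3%, 61.8%, 66.7% and 59.5% of chromosome 7 peaks were higher in Mut4, with median log2 folds of 0.27, 0.25, 0.13, 0.27 and 0.098, and so no steady trend. Elsewhere the shares were 34.4%, 47.2%, 54.1%, 57.0% and 50.1%, with medians of -0.25, -0.039, 0.063, 0.098 and 0.00091. Without the peaks unique to Mut4, the medians in the weakest quintile were 0.020 on chromosome 7 and -0.31 elsewhere. Weak promoter peaks went the other way, with a median of -0.40 on chromosome 7 and -0.43 elsewhere in the weakest quintile. Over the quintiles the chromosome 7 promoter medians were -0.40, -0.30, 0.084, 0.37 and 0.12, against -0.43, -0.094, 0.098, 0.098 and -0.019 elsewhere. Outside promoters the chromosome 7 medians were 0.34, 0.33, 0.24, 0.17 and 0.037, against -0.15, 0.048, 0.024, 0.046 and 0.10 elsewhere. That series includes all but 2 of the 28 peaks unique to Mut4, which are higher by their mark. The weakest quintile held 122 chromosome 7 peaks with the peaks of that mark and 97 without. Without them the medians of all chromosome 7 peaks were 0.020, 0.25, 0.13, 0.27 and 0.092, with no steady fall. The series outside promoters was not computed without them. When the other peaks were weighted to the same mix of annotation class and signal quintile as chromosome 7, 49.6% of them were higher in Mut4, against 48.5% unweighted and 62.7% on chromosome 7.

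In the strongest quintile of signal, 75 of 124 chromosome 7 promoter peaks were higher in Mut4 (60.5%; median log2 fold 0.12), against 48.1% and -0.019 elsewhere. The strongest promoter peak of each window was named by rule, passing over clone-type names such as AC006001.2 and symbols such as LINC or MIR. Of these 16, 4 were higher and 12 lower (median log2 fold -0.22). Elsewhere the same rule gave 74 higher and 164 lower of 238 peaks (median -0.29). HNRNPA2B1, an RNA-binding protein of splicing and transport, had 115 reads in Mut4 and 424 in ZHX2, a scaled fold of 0.581 (0.468 to 0.715). SEPTIN7, a cytoskeletal GTPase, had 87 and 415 reads in Mut4 and ZHX2, a fold of 0.449 (0.352 to 0.567). BRAF, a kinase of the MAP kinase cascade, had 97 reads in Mut4 and 347 in ZHX2 (0.599, 0.473 to 0.752), and RBM33, an RNA-binding protein, 76 and 263 (0.619, 0.473 to 0.802). FMC1, an assembly factor of the mitochondrial ATP synthase, was the 1 whose interval lay above 1, with 107 reads in Mut4 and 153 in ZHX2 (1.498, 1.16 to 1.93). The authors' deposited table gives adjusted p-values of 0.000603 for SEPTIN7, 0.0381 for HNRNPA2B1, 0.0752 for BRAF, 0.134 for RBM33 and 0.265 for FMC1, so the last 3 do not pass 0.05 there. The intervals of the other 11 spanned 1, among them CDK6, a kinase of the G1 phase, with 130 reads in Mut4 and 229 in ZHX2 (1.22, 0.973 to 1.51). EIF3B, a translation initiation subunit, had 108 and 253 reads in Mut4 and ZHX2 (0.914, 0.723 to 1.15). The 208 promoter peaks at or above the chromosome's median signal were 133 higher and 75 lower, so the strongest peak of a window does not stand for its neighbours.

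Among these 208 peaks the largest folds belonged to TBRG4, with 54 reads in Mut4 and 48 in ZHX2 (2.41, 1.60 to 3.63), then AC006001.2, WDR60, C7orf26, H2AZ2 and BCL7B, a subunit of the SWI/SNF remodeller, at 2.19 to 2.14. BCL7B had 50 reads in each library, which the scaling turns into a fold of 2.14 (1.42 to 3.23). The smallest fold was that of MTURN, with 49 reads in Mut4 and 324 in ZHX2, 3.09-fold lower (2.28 to 4.26); the authors' deposited table gives it an adjusted p of 2.61e-06. NIPSNAP2 (a mitochondrial protein), JAZF1-AS1, TRIM24 (a bromodomain cofactor), GIGYF1 (a translation repressor partner) and MRPS24 (a mitochondrial ribosomal subunit) had folds of 0.357 to 0.441. NAPEPLD had 65 reads in Mut4 and 314 in ZHX2, and TMEM130 15 and 72.

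Gene lists were drawn with earlier results of these data known, and a gene is given by its peak nearest the transcription start; over the 520 genes 322 were higher and 198 lower in Mut4, with a median log2 fold of 0.19. On unscaled reads the values of all lists move down by 1.10 together. The 6 genome maintenance genes with a peak, of 13 listed, were all higher, with a median of 0.40; MCM7, a subunit of the replicative helicase, had 61 reads in Mut4 and 103 in ZHX2 (1.27, 0.908 to 1.76), and DBF4, the activator of the CDC7 kinase, 61 and 84 (1.56, 1.10 to 2.19). Of the 25 mitochondrial genes 14 had a peak, which was higher in 10 and lower in 4 (median 0.38). CYCS, which encodes cytochrome c, had 78 and 91 reads in Mut4 and ZHX2 (1.84, 1.34 to 2.51), and ATP5MF, an ATP synthase subunit, 50 and 62 (1.73, 1.17 to 2.55). In the same list the ribosomal subunits MRPS24, with 14 and 68 reads in Mut4 and ZHX2 (0.441, 0.229 to 0.791), and MRPS33, with 36 and 125 (0.617, 0.413 to 0.900), had intervals below 1. The 22 zinc-finger genes split into 15 higher and 7 lower (median 0.091). Of 28 B cell and lymphoma genes 15 had a peak, higher in 9 and lower in 6 (median 0.17). The interval lay above 1 at 1 of the 15 and below 1 at 2. Over the 520 genes it lay above 1 at 97 and below 1 at 48, and of all listed peaks 11.0% lay above and 11.0% below. The 2 were BRAF, given above, and CUX1, a homeobox factor, with 57 reads in Mut4 and 171 in ZHX2 (0.714, 0.519 to 0.969). The 4 peaks of CUX1, 2 higher and 2 lower, together had a fold of 0.877 (0.717 to 1.07). IKZF1, the lymphoid factor Ikaros, had 48 and 83 reads in Mut4 and ZHX2 at its nearest peak (1.24, 0.849 to 1.79), and its 3 peaks together had a fold of 1.35 (1.09 to 1.68). EZH2, the histone methyltransferase of the Polycomb complex, had 51 reads in Mut4 and 78 in ZHX2 (1.40, 0.964 to 2.02). The 7 GIMAP genes, GTPases of lymphocytes, had no listed peak.

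The translation and RNA list split the other way: of 16 genes 9 had a peak, higher in 2 and lower in 7 (median -0.11). The interval lay below 1 at 2 of the 9 and above 1 at 0, where 11.0% of all listed peaks lay below and 11.0% above. Of 22 Williams region genes 14 had a peak, higher in 6 and lower in 8 (median -0.076), and this region has duplicated copies whose reads the authors' mapping could share. The HOXA cluster, homeobox genes of body patterning, had a peak at 6 of 11 genes, higher at 1 and lower at 5 (median -0.27). HOXA13 had 30 reads in Mut4 and 105 in ZHX2 (0.612, 0.393 to 0.926).

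The authors marked 28 chromosome 7 peaks as unique to Mut4, 4.40% (2.95 to 6.30%), against 2.21% of the other peaks, 17 as common and 591 as unique to ZHX2. Of the 591, 358 were higher in Mut4 (60.6%, elsewhere 47.0%; median log2 fold 0.15 against -0.039). Of the 17 common peaks, 13 were higher (76.5%, elsewhere 66.7%). All 28 peaks unique to Mut4 were higher, as were all 182 so marked elsewhere, so that direction goes with the mark and is not a finding. The 28 were short, 155 to 301 bases, with a median of 186 against 187 for the 182 elsewhere. They had 12 to 84 reads in Mut4 and 1 to 22 in ZHX2. Their folds ranged from 2.63 to 38.5 with a median of 11.96. Of the 28, 17 lay in introns, 8 between genes, 2 in promoters and 1 at a transcript end, and 14 were over 10 kb from a start. They occurred in 11 of the 16 windows, with 8 in the last. The peak nearest AC093392.2 had 84 reads in Mut4 and 11 in ZHX2 at chr7:56373480-56373711 (16.4, 8.69 to 34.0). The POP7 promoter, of an RNase P subunit, had 27 and 6 (9.64, 3.90 to 28.5), and that of TMED4, a cargo receptor of the secretory pathway, 27 and 22 (2.63, 1.44 to 4.84). Without these 28, 61.0% of the remaining peaks were higher in Mut4.

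Some genes held several peaks. AUTS2, a long neurodevelopmental gene, had 9 peaks, 5 of them higher, and a summed fold of 1.06 (0.916 to 1.22), and AGMO, an enzyme of ether lipid breakdown, had all 3 higher, with a summed fold of 2.23 (1.60 to 3.10). An exonic peak of ADAP1 had 1 read in Mut4 and 26 in ZHX2, 12.1-fold lower with an interval of 1.99 to 498. A peak nearest the pseudogene AC023141.13 had 0 reads in Mut4 and 13 in ZHX2. It was at least 1.42-fold lower by the exact interval, and 2.02-fold lower if 3 reads are allowed in Mut4.

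In its share of peaks higher in Mut4, by which it was picked, chromosome 7 stood 1st of 23 chromosomes (62.7%). It was ahead of 21 (62.0%), 20 (60.8%) and 19 (60.1%), with X at 26.5%. It also held the most listed peaks per 100 coding genes, 67.8 against 42.6 over the others, with chromosome 20 at 67.0, 18 at 61.5 and 19 at 58.9. By promoter peaks per 100 coding genes it ranked 4th, and by peaks per Mb 6th. The next values are descriptions over points that share both libraries and their depth. Over the 23 chromosomes, listed peaks per 100 coding genes and the share higher in Mut4 had a Spearman rho of 0.82. Leaving out chromosome 7 gave 0.80, and both 7 and X 0.76. The DNA copy number of the chromosomes was not measured here.

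**Figure D5:**
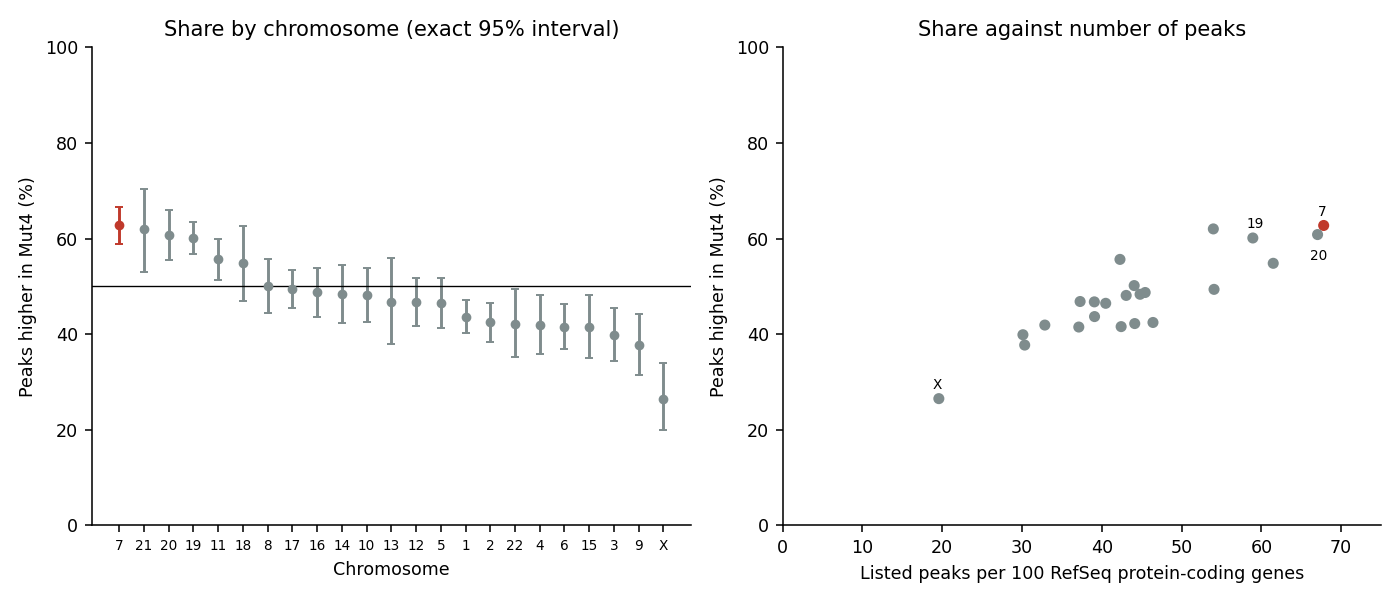
Share of peaks higher in Mut4 (vertical, percent, authors' scaling) for each chromosome with its exact 95% interval (left), and the same share against listed peaks per 100 RefSeq coding genes (right), with chromosome 7 in red. Chromosome 7 lay at 67.8 peaks per 100 genes and 62.7%, and X had the lowest share, 26.5%.

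Across the 16 windows, the share of peaks that were promoter peaks and the share of peaks higher in Mut4 had a Spearman rho of -0.47, against -0.24 over 239 windows elsewhere; both are descriptions over windows that share the 2 libraries. Of the 297 promoter peaks, 191 overlapped a RefSeq promoter of their own gene. The motifs were counted on both strands: the CCAAT box (CCAAT), the GC box (GGGCGG) and an ETS site (CCGGAAG). The GC box was in 73.8% of the 191 and in 42.6% of all 35116 RefSeq promoters, the ETS site in 18.3% and 8.52%, and the CCAAT box in 28.8% and 32.0%. The 2 sets were not matched for GC content, whose median was 69.6% in the 191 and 58% over all RefSeq promoters. Among the 191, the CCAAT box was in 32.7% (24.1 to 42.3%) of the 110 with more signal in Mut4 and 23.5% (14.8 to 34.2%) of the 81 with less, and the ETS site in 22 and 13 of them. The median GC content was 68.8% in the 110 and 71.6% in the 81, and from the lowest to the highest tertile of GC content 64.1%, 60.9% and 47.6% of the peaks were higher in Mut4. A motif match is a run of letters and not a bound site.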

How the data were processed

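ZHX2 binding was profiled in 4 libraries of DB cells, 1 immunoprecipitated and 1 input library per arm, grouped by their titles; inputs were not used here. The submitters' processing notes name hg38 as build; they list MACS2 2.2.6, deepTools 3.4.3, HOMER, Picard 2.22.2-0, BWA 0.7.17, MultiQC 1.8, FastQC 0.11.9 and Trim Galore 0.6.4. The sources used here give neither the roles of these tools nor the peak calling settings. The analysis used the authors' deposited comparison of the 2 immunoprecipitated libraries, which per the file headers gives a log2 CPM, a log2 fold change and a p-value, raw and adjusted, per peak. The deposited log2 fold runs ZHX2 over Mut4, so its sign was turned to give Mut4 over ZHX2. Positions are as deposited, with starts from 0 or 1 (which is unstated). There were 0 columns of other samples.

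Whole reads were recovered in 8871 of 8871 peaks (100%), giving back both values within 1e-09, with a shared prior of 0.25 reads in the fold and a prior of 2 reads and a dispersion of 0.05 in the CPM. The recovery was tested on simulated data. The authors' library sizes were the totals over listed peaks times 0.965 for Mut4 and 1.04 for ZHX2, so depth outside these peaks is unknown. A count of 0 allows up to 3 reads, 11.4 CPM in Mut4 and 5.34 CPM in ZHX2. Intervals are exact (Clopper-Pearson, 95%). Without molecular identifiers, reads are not independent molecules, and peaks are not replicates, so intervals cover counting error only and no test between conditions was made. Intervals of medians come from order statistics.

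Windows are 10 Mb by peak start, counted with 10 or more peaks, and the arms were split at 60 Mb. Peaks were named by rule: the strongest promoter peak per window, the 6 largest and 6 smallest folds among the promoter peaks of at least median signal, up to 5 of highest signal for each mark, up to 6 members of each of 7 lists, and the strongest peaks in each direction. For the strongest per window, clone-type names and symbols of the LOC, LINC, MIR, SNOR and RNU kinds were passed over. Others named, such as window genes, NAPEPLD, TMEM130, AUTS2, AGMO and ADAP1, were chosen after their values were seen. The members and lists were chosen with earlier results of these data known. Coding genes and promoters came from RefSeq tables on GRCh38.p14, with 223 of 297 promoter peaks matched by symbol. Python 3.11.15, numpy 2.4.6, scipy 1.17.1, pandas 2.3.3 and matplotlib 3.10.9 were used. Some peaks that the naming rule took are not reported here.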

Additional observations from a re-analysis of the deposited data

How the results depend on the processing

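With 1 library per arm, no result has a replicate check, and most directions toward Mut4 depend on the scaling. On unscaled reads the share of chromosome 7 peaks higher in Mut4 was 8.33%, the median log2 fold -0.89, and 0 windows had a majority higher. There 26 peaks were over 2-fold higher and 288 lower, and the share minus that of the other peaks was 4.61 points. Scaled to peaks on unplaced contigs, chosen after seeing the data, these values were 11.5%, -0.74, 0, 26, 211 and 5.90 points. The difference of medians from the other peaks, 0.22, is the same under any scaling by construction. With promoter peaks alone the share was 57.9% and the median 0.098, and 9 of 12 windows had a majority higher. Of the 297 promoter peaks 13 were over 2-fold higher and 16 lower, against 143 and 370 of 4728 elsewhere. The differences from other promoter peaks were 9.56 points and 0.12. Among peaks at or above the median signal the difference of medians was 0.13, with 21 peaks over 2-fold higher and 13 lower. Without the peaks unique to Mut4, 38 were over 2-fold higher, 33 of the 591 unique to ZHX2 and 5 of the 17 common. Elsewhere 203 of 7885 peaks unique to ZHX2 and 25 of 168 common peaks were. At 4-fold, 26 were higher and 3 lower by fitted fold, of which 1 had 0 reads in Mut4 and is bounded only at 1.42-fold. The matching counts over other peaks at the unscaled, contig-scaled, stronger-signal and 4-fold settings are not given, so those counts stand alone. In windows of 20 Mb, 8 of 8 had a majority higher. Leaving out each window in turn gave shares of 61.8% to 63.6%. The cause of these changes was not tested beyond what the alternatives' own construction shows (fewer peaks, another threshold or window length). No paired analysis was possible because each arm had 1 library.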
